A study of Homo sapiens with 8 samples.

Results

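The genes described here are 30 members of the p53 pathway, mostly direct targets of the transcription factor p53, chosen by gene symbol. All 30 have a row among the 21077 genes of the deposited table. They were compared between Hs578T breast cancer cells kept for 48 hours in 25 mM glucose (high glucose, modeling hyperglycemia) and the same cells kept for 48 hours in 5 mM glucose (low glucose), with RNA-Seq of 4 replicates per group. By the study's methods both groups were first conditioned in low glucose and then kept in serum-free medium. No library is labelled as carrying mannitol to match the osmolarity, so glucose and osmolarity cannot be told apart. Hs578T is an established line that is labelled ER negative, and a single line that is not a model of breast tumors in general. The labels do not say whether the replicates were separate cultures, and the p values given here cover only the variation among these libraries, possibly technical.

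The p53 protein is held low by the ubiquitin ligase MDM2 and its relative MDM4 and is stabilized when DNA is damaged or ribosome production is disturbed. It then binds a response element made of decamers, the p53 half-sites, and raises the transcription of genes that stop the cell cycle, start apoptosis, alter metabolism or, like MDM2 and PPM1D, switch p53 off again. Many of its targets are also reached by other factors, for example GADD45A by the stress-induced factor ATF4.

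Values are deposited normalized signal, taken as CPM (counts relative to library size) with trimmed mean (TMM) scaling. Libraries held an estimated 10244900 to 11956677 counts, and 1 count was worth 0.0867 to 0.118 CPM. Fold changes are given as differences of log2(CPM + 1), high minus low glucose, and are therefore damped for low genes. A gene was called when the Benjamini-Hochberg adjusted p of limma over all 15570 genes tested was under 0.05. The columns summed to 1017015 to 1036274 CPM in high and 1205567 to 1229021 CPM in low glucose, and mitochondrial transcripts took 1.67% to 1.95% of the signal in high and 0.969% to 1.06% in low glucose. When all libraries were given the same total instead, the median log2 fold change of all genes was 0.20 and not -0.00031, which alters the call or direction of small changes, and these are pointed out where they occur. As a check of the label, the estrogen receptor gene ESR1 reached at most 0.270 CPM, and the epithelial genes EPCAM and CDH1 were at 0 and at most 0.902 CPM, but the luminal gene GATA3 was at 18.9 to 21.8 CPM in high and 19.4 to 24.2 CPM in low glucose. In turn the mesenchymal gene VIM was at 3567 to 3909 CPM in high and 8269 to 8581 CPM in low glucose. The other mesenchymal genes fell less or not at all. FN1 had a log2 fold change of -0.78, and SPARC one of -0.15, but 0.095 with the same total. CD44 was not called (0.036), but was called higher with the same total (0.28). Of the markers of other cell types, the summed level of PECAM1, VWF and CDH5 (endothelial) was 6.21 to 7.80 CPM in high and 1.95 to 2.77 CPM in low glucose, with CDH5 at 0 in every library, and of the leukocyte markers PTPRC was at 0.382 to 1.08 CPM in high and 0 to 0.221 CPM in low glucose and LYZ at 0 in every library. Their part in the results was not tested.

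Of the 30 members, 29 reached 0.5 CPM in at least 2 libraries and were tested. A total of 8 were higher and 17 lower in high glucose, and 4 were not called, whereas over all genes tested 35.7% were higher, 37.2% lower and 72.9% called in either direction. The 17 include GADD45G, which passed this filter only through low-glucose libraries and so could only be called lower. The median log2 fold change of the 29 members was -0.27, beside -0.00031 for all genes tested, and it was the same with GADD45G set at its bound. After rescaling to a common total, 12 members were higher and 14 lower, over all genes 47.0% and 27.9%, and the members' median of -0.023 stood beside 0.20 for all genes. The members' median was below that of all genes on both scales. Falls also outnumbered rises, but after rescaling only by 14 to 12. The 14 again include GADD45G, so little can be read from that margin. On the log2(CPM + 1) scale, 8 called members changed by 2-fold or more, 4 in each direction (17.1% of all genes tested). The called genes GADD45G, FDXR and, barely, PIDD1 fell by more than 2-fold in mean CPM but not on that damped scale. The values of the groups did not overlap for 24 of the 29 members, beside 66.7% of all genes tested.

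**Figure D1:**
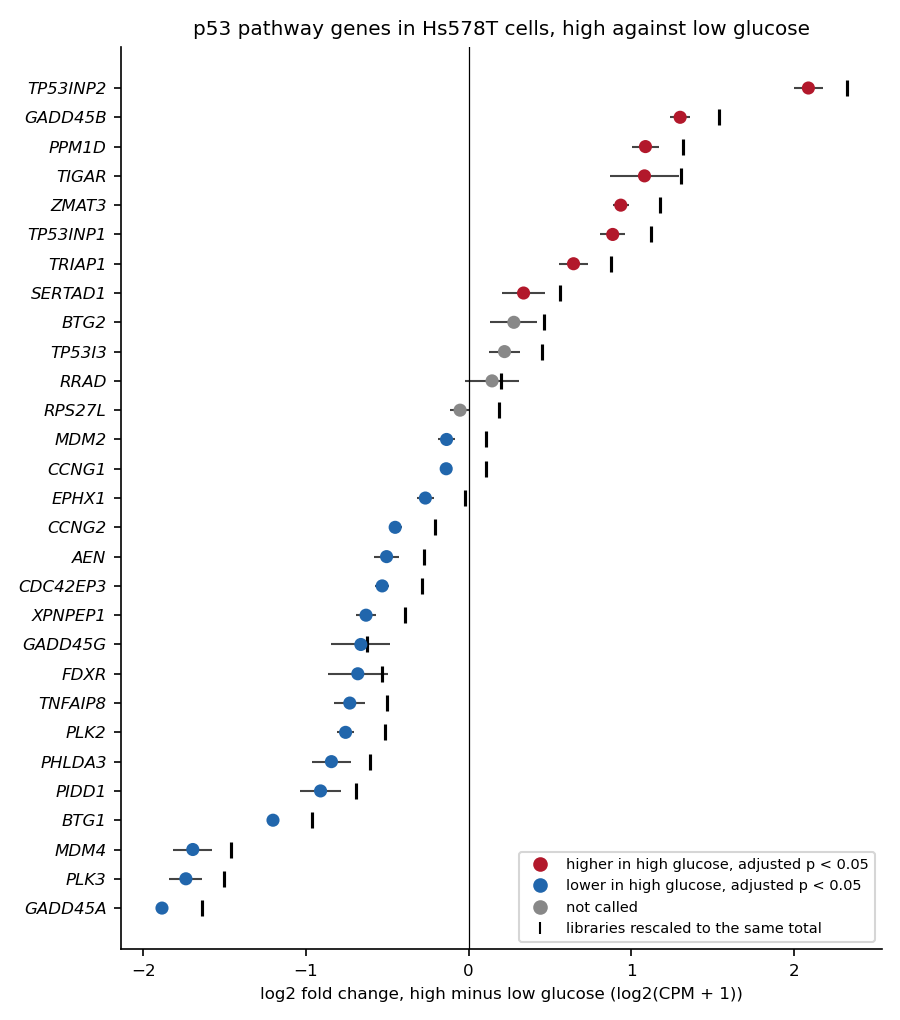
Log2 fold change (high minus low glucose, log2(CPM + 1)) of the 29 members tested, with the standard error as a line, called genes in red (higher) or blue (lower) and uncalled genes in gray. Vertical ticks give the value after rescaling to a common total. The values run from -1.89 for GADD45A to 2.09 for TP53INP2, and the ticks of MDM2, CCNG1 and RPS27L lie on the other side of 0.

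The promoters of the members were read for the letters that p53 and stress factors are known to bind, to show what the targets share in sequence. RefSeq windows of 250 bases before to 50 bases after a transcript start (GRCh38.p14) were found for 26 of the 30 genes, 40 windows in all. The p53 half-site (3 purines, C, 2 bases that are A or T, G, 3 pyrimidines, the same on both strands) occurred in 4 of the 40 windows, those of AEN, FDXR, PLK2 and RPS27L, against 6.63% of all 35116 windows. Half-sites in direct tandem with at most 2 mismatches occurred in 3 windows, against 0.285% of all windows, but 2 of these are overlapping windows of MDM2 that hold 1 and the same site, and the other is of AEN. The site of MDM2 is the response element in front of its inner transcript start. The reference sequences are shown 5′ to 3′ on the strand of the gene, with the half-site or tandem in capitals, and a match is a description and not a bound site.
MDM2 (chr12:68808908-68808957, plus strand): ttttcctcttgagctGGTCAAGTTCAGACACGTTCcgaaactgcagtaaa
AEN (chr15:88621291-88621339, plus strand): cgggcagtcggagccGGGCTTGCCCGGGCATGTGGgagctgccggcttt
PLK2 (chr5:58460194-58460233, minus strand): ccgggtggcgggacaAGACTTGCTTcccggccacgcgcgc
RPS27L (chr15:63157512-63157551, minus strand): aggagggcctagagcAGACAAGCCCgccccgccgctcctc
FDXR (chr17:74872995-74873020, minus strand): ggcccgggcaggagcGGGCTTGCCCt

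The cyclic AMP response element, searched as TGACGTCA on both strands, was found in 1.85% of all windows and in 2 windows of members, those of PPM1D and TP53INP2. The element bound by ATF4 with C/EBP factors, searched as TGATGNAA on both strands, was found in 3.62% of all windows and in 2 windows of members, those of PLK3 and GADD45G, and it overlaps neither the p53 letters nor TGACGTCA there. These 4 windows were picked out after the values were known and are shown with the element in capitals, which for GADD45G reads on the other strand.
PPM1D (chr17:60600117-60600154, plus strand): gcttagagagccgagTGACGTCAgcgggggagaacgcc
TP53INP2 (chr20:34704268-34704305, plus strand): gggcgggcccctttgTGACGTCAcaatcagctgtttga
PLK3 (chr1:44800229-44800266, plus strand): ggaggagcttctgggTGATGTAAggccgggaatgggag
GADD45G (chr9:89604895-89604932, plus strand): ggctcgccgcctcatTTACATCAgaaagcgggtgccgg

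Among the brakes on p53, MDM4 fell and PPM1D rose, while MDM2 and CCNG1 moved little. MDM4, the relative of MDM2 that covers the activation domain of p53 (chromosome 1 from 204516406 to 204558120 of GRCh38.p14), had 15.3, 14.03, 10.9 and 19.1 CPM in high-glucose libraries, against 50.1, 45.1, 52.7 and 50.1 CPM in low-glucose libraries. The groups were well apart although the high-glucose libraries varied (mean 14.8 ± 3.40 and 49.5 ± 3.18 CPM, SD, n = 4 each, log2 fold change -1.70 ± 0.120 SE, adjusted p = 3.87e-09). PPM1D, the phosphatase WIP1 that removes activating phosphates from p53 and its kinases (chromosome 17 from 60600193 to 60666280), had 31.6, 31.97, 30.9 and 31.2 CPM in high glucose, against 14.6, 15.7, 12.2 and 14.6 CPM in low glucose. Its high-glucose values lay close together and all above the low-glucose values (log2 fold change 1.09 ± 0.0807 SE, adjusted p = 6.80e-09).

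MDM2, whose promoter carries the tandem shown above (chromosome 12 from 68808172 to 68850686), had 52.6, 50.5, 46.9 and 49.8 CPM in high-glucose cells, against 53.6, 53.99, 53.9 and 58.3 CPM in low-glucose cells. The ranges came within about 1 CPM of each other, and the log2 fold change of -0.14 ± 0.0535 SE, adjusted p = 0.0330 was the smallest in size among the members called. It turned to 0.11, adjusted p = 0.0851 with the same total, and the call was lost without low-glucose replicate 4 (adjusted p = 0.107), without high-glucose replicate 3 (adjusted p = 0.107) and without high-glucose replicate 4 (adjusted p = 0.0507). Over the alternatives the adjusted p of MDM2 was 0.0217 to 0.605. CCNG1, cyclin G1, which brings a phosphatase to MDM2, had 266, 268, 262 and 258 CPM in high glucose, against 297, 279, 291 and 294 CPM in low glucose, without overlap and with a log2 fold change of -0.14 ± 0.0340 SE, adjusted p = 0.00195. After rescaling to the same total this call had the opposite sign (0.11, adjusted p = 0.00824), so neither MDM2 nor CCNG1 had a direction that held under every scaling.

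The GADD45 family, small stress proteins that bind the replication clamp and activate a MAP kinase kinase kinase, split. GADD45A (ENSG00000116717.13, chromosome 1 from 67685201 to 67688334), the classical p53 target of the family, had 92.2, 100.1, 98.6 and 99.6 CPM in high-glucose libraries, against 365, 366, 354 and 368 CPM in low-glucose libraries. This was the largest fall among the members on the log2(CPM + 1) scale (-1.89 ± 0.0377 SE, adjusted p = 3.22e-15), with a spread between replicates of 1.73% to 3.76% of the mean. GADD45B (chromosome 19 from 2476127 to 2478257), the member induced by NF-kappaB and TGF-beta, had 71.1, 73.4, 73.4 and 61.8 CPM in high-glucose libraries, against 27.7, 28.1, 28.4 and 26.6 CPM in low-glucose libraries. It rose in every high-glucose library relative to every low-glucose library (log2 fold change 1.30 ± 0.0623 SE, adjusted p = 3.91e-11). GADD45G was at 0 in all 4 high-glucose libraries, against 0.221, 1.12, 0.325 and 0.825 CPM in the low-glucose libraries, which correspond to about 2, 10, 3 and 7 counts. It passed the filter only through low-glucose replicates 2 and 4, so it could only be called lower. Its limma adjusted p of 0.00412 is therefore no support for a fall. Against a floor of 3 counts over the high-glucose group, GADD45G was at least 8.97-fold lower if the low-glucose mean is taken as exact. That mean holds the same low-glucose values that passed GADD45G through the filter. The bound thus describes these libraries and is no support for a fall either. Limits from counts cover counting error only.

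Of the other regulators of growth, BTG1 and PLK3 fell most and ZMAT3 rose. BTG1, an antiproliferative protein that recruits the CCR4-NOT deadenylase (chromosome 12 from 92140278 to 92145846), had 79.8, 78.1, 77.1 and 77.2 CPM in high glucose, against 176, 179, 189 and 179 CPM in low glucose (log2 fold change -1.20 ± 0.0390 SE, adjusted p = 5.03e-13). PLK3, a stress-responsive polo-like kinase (chromosome 1 from 44800377 to 44805990), had 15.7, 13.03, 13.6 and 9.997 CPM in high glucose, against 45.2, 46.5, 46.4 and 43.98 CPM in low glucose (log2 fold change -1.74 ± 0.102 SE, adjusted p = 4.21e-10). In both genes the groups were separated by more than the whole range within either group. Its relative PLK2, with a half-site in its promoter window, had 69.8 to 77.7 CPM in high and 118 to 136 CPM in low glucose (log2 fold change -0.76), and the unconventional cyclin CCNG2 had 85.98 to 89.8 and 118 to 125 CPM in that order (-0.45). Both fell without overlap.

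ZMAT3, a zinc finger protein that binds RNA and controls splicing (chromosome 3 from 179017223 to 179072513), had 82.9, 82.7, 89.1 and 86.4 CPM in high-glucose libraries, against 42.8, 42.6, 45.3 and 45.5 CPM in low-glucose libraries. The libraries of each group were close together (85.2 ± 3.06 and 44.1 ± 1.55 CPM, SD, n = 4 each, log2 fold change 0.94 ± 0.0487 SE, adjusted p = 1.00e-10). SERTAD1, a coregulator that binds CDK4, had 15.5, 18.7, 12.4 and 12.2 CPM in high and 10.4, 12.9, 12.1 and 9.79 CPM in low glucose, so the groups overlapped. Its call (0.34 ± 0.133 SE, adjusted p = 0.0317) was lost without either of high-glucose replicates 1 and 2 (adjusted p = 0.0754 and 0.123) and without either of low-glucose replicates 1 and 4 (adjusted p = 0.0782 and 0.0938). BTG2, the relative of BTG1, had 3.21 to 4.77 CPM in high and 2.48 to 3.26 CPM in low glucose and was not called (0.28 ± 0.144 SE, adjusted p = 0.0931), but with the same total it was called higher (0.47, adjusted p = 0.00898).

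**Figure D2:**
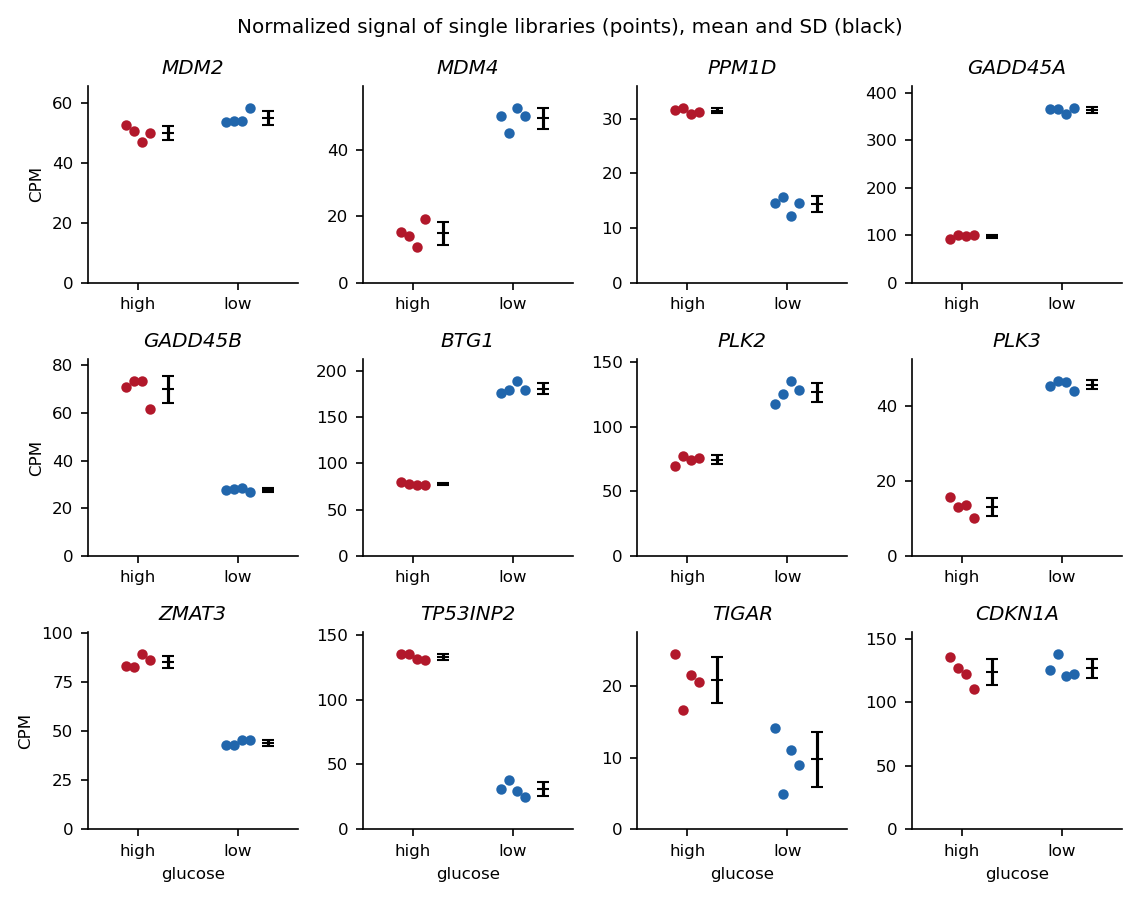
Normalized signal (CPM, linear axes from 0) of 11 members and CDKN1A in the 4 high-glucose (red) and 4 low-glucose (blue) libraries, with the mean and SD in black. GADD45A averaged 97.6 ± 3.67 CPM in high and 363 ± 6.28 CPM in low glucose, the groups lie apart for all 11 members, by about 1 CPM for MDM2, and they overlap for CDKN1A.

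Of the 6 members with a role in cell death, 4 were lower in high glucose, 1 was higher and 1 was not called (37.2% lower and 35.7% higher over all genes tested). PIDD1, the scaffold that activates caspase-2, had 7.80, 6.61, 6.39 and 4.86 CPM in high-glucose libraries, against 11.6, 14.4, 12.1 and 13.2 CPM in low-glucose libraries (log2 fold change -0.91 ± 0.128 SE, adjusted p = 1.07e-05). PHLDA3, which blocks the survival kinase AKT at the membrane, had 22.3, 20.9, 16.6 and 13.8 CPM in high-glucose libraries, against 30.8, 35.6, 33.9 and 32.9 CPM in low-glucose libraries (log2 fold change -0.84 ± 0.118 SE, adjusted p = 9.58e-06). The exonuclease AEN, whose promoter window held the tandem, had 15.7 to 17.6 CPM in high and 22.1 to 24.5 CPM in low glucose (-0.50), and TNFAIP8, which counters apoptosis, had 11.02 to 14.9 and 19.9 to 22.8 CPM in that order (-0.73).

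TRIAP1, a small protein that holds back apoptosis, was the only one of these 6 called higher, with 21.4, 19.7, 19.3 and 23.5 CPM in high-glucose libraries, against 13.8, 12.7, 12.03 and 13.6 CPM in low-glucose libraries (log2 fold change 0.65 ± 0.0880 SE, adjusted p = 7.57e-06). The members that fell thus act in both directions, since PIDD1, PHLDA3 and AEN favor death and TNFAIP8 opposes it. RPS27L, a copy of ribosomal protein S27 with a half-site in its window, had 49.3 to 58.2 CPM in high and 52.7 to 60.7 CPM in low glucose and was not called (-0.052 ± 0.0636 SE, adjusted p = 0.472), but the same total made it a call for higher (0.19, adjusted p = 0.0126). Its near-identical relative RPS27 and their processed copies can share its reads.

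The TP53INP genes, whose proteins take part in autophagy, both rose. TP53INP2, which helps autophagosomes form and leaves the nucleus when autophagy starts (chromosome 20 from 34704344 to 34713436), had 135, 135, 131 and 130.3 CPM in high-glucose libraries, against 31.2, 37.6, 29.7 and 24.6 CPM in low-glucose libraries. This was the largest rise among the members (mean 133 ± 2.50 and 30.8 ± 5.32 CPM, SD, n = 4 each, log2 fold change 2.09 ± 0.0884 SE, adjusted p = 9.52e-12). TP53INP1 had 47.1, 46.9, 45.4 and 49.7 CPM in high-glucose libraries, against 22.1, 25.9, 29.4 and 23.6 CPM in low-glucose libraries (log2 fold change 0.89 ± 0.0781 SE, adjusted p = 5.18e-08), and its span overlaps the coding gene NDUFAF6. SPATA18, which takes part in the quality control of mitochondria, had 1 count in high-glucose replicate 2 and 0 in the other 7 libraries, so it was not tested and a change was not detectable at this depth.

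Metabolic targets moved in both directions. TIGAR, which lowers fructose-2,6-bisphosphate and so slows glycolysis (chromosome 12 from 4321213 to 4360028), had 24.5, 16.7, 21.6 and 20.6 CPM in high glucose, against 14.1, 4.97, 11.1 and 8.99 CPM in low glucose. The groups did not overlap, but the low-glucose libraries spread widely (20.8 ± 3.23 and 9.80 ± 3.85 CPM, SD, n = 4 each, log2 fold change 1.08 ± 0.211 SE, adjusted p = 0.000271). XPNPEP1, an aminopeptidase that acts before proline, had 41.1 to 48.7 CPM in high and 64.4 to 71.1 CPM in low glucose (log2 fold change -0.63), and the ferredoxin reductase FDXR, with a half-site next to its start, had 1.39, 1.30, 0.954 and 0.720 CPM in high-glucose libraries, against 1.44, 3.15, 2.06 and 2.95 CPM in low-glucose libraries (-0.68 ± 0.185 SE, adjusted p = 0.00385). The groups of FDXR came within 1 count of each other, near the lower limit of this depth, yet its call held in every alternative in which it was tested.

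EPHX1, the microsomal epoxide hydrolase, had 93.3 to 105 CPM in high and 109 to 127 CPM in low glucose (-0.27 ± 0.0543 SE, adjusted p = 0.000409), a call lost on rescaling to the same total (-0.023, adjusted p = 0.714). TP53I3, an oxidoreductase that forms reactive oxygen, had 15.6 to 18.99 CPM in high and 13.1 to 16.5 CPM in low glucose and was not called (0.22 ± 0.0962 SE, adjusted p = 0.0502), although it passed as higher in 8 of 18 alternatives, where the adjusted p ranged from 0.000531 to 0.149. CDC42EP3, an effector of the GTPase CDC42, had 247, 234, 266 and 264 CPM in high-glucose libraries, against 366, 357, 373 and 366 CPM in low-glucose libraries, and fell without overlap (log2 fold change -0.53 ± 0.0418 SE, adjusted p = 1.36e-08). The small GTPase RRAD reached at most 0.607 CPM, overlapped between the groups and was not called (0.14 ± 0.166 SE, adjusted p = 0.443).

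The ratio of paralogs within a library depends on the scaling between libraries only through the pseudocount, and it was compared for 6 pairs. In all 6 pairs the ratio differed between the groups without overlap (2-sided exact permutation test over 70 arrangements, p = 0.0286 and adjusted over the 6 pairs p = 0.0286, the smallest that 4 against 4 libraries allow). Single genes already did not overlap for 66.7% of all genes tested, and no such share was computed for ratios of other genes, so nothing particular to these pairs can be read from the count. The log2 ratio of GADD45A to GADD45B was 0.48 ± 0.138 in high and 3.67 ± 0.0588 in low glucose (SD, n = 4 each), a difference of -3.19. For MDM2 to MDM4 it was 1.71 ± 0.279 in high and 0.15 ± 0.103 in low glucose, a difference of 1.56. The balance of these transcripts moved toward MDM2 as MDM4 fell while MDM2 moved little, also with the same total or another pseudocount. Protein was not measured. BTG1 to BTG2 differed by -1.48, TP53INP1 to TP53INP2 by -1.20, PLK2 to PLK3 by 0.98 and CCNG1 to CCNG2 by 0.31 on the same scale. Pairs with GADD45G were left out, because it was at 0 in every high-glucose library.

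**Figure D3:**
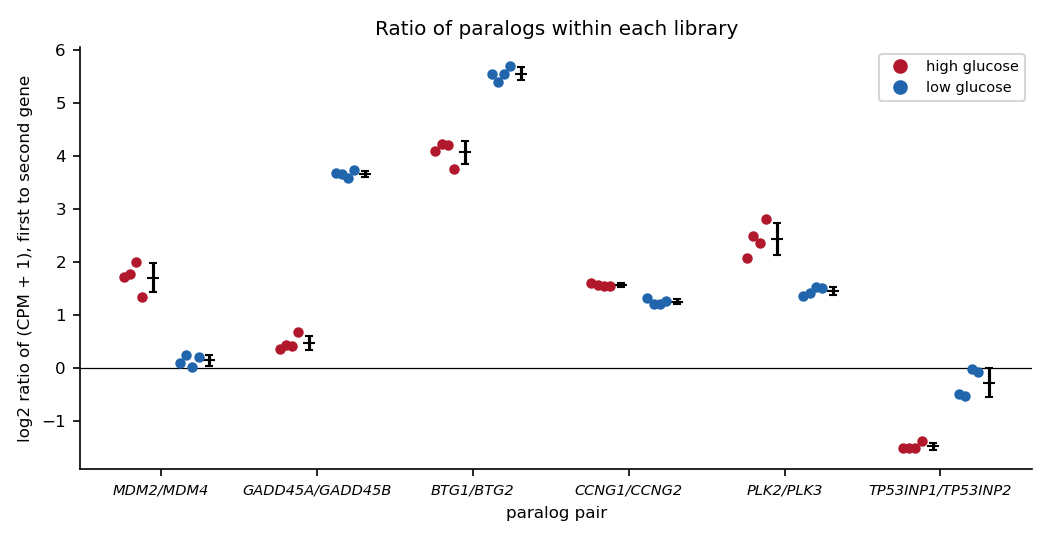
Log2 ratio of (CPM + 1) of the first to the second gene of each paralog pair, within each of 4 high-glucose (red) and 4 low-glucose (blue) libraries, with the mean and SD in black. The groups do not overlap in any of the 6 pairs, and the difference is largest for GADD45A to GADD45B (means of 0.48 in high and 3.67 in low glucose).

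Other p53 targets also moved both ways. Of 20 further targets, 19 had a row and were tested (TP53AIP1 is not analysed here), and 7 were higher, 9 lower and 3 not called, with a median log2 fold change of -0.15 (35.7% higher and 37.2% lower over all genes tested). With the same total, 9 were higher and 8 lower, over all genes 47.0% and 27.9%. The side with more genes thus changed with the scaling, as it did over all genes. CDKN1A, the p21 inhibitor of cyclin-dependent kinases and the best known p53 target, had 136, 127, 123 and 111 CPM in high glucose, against 126, 138, 121 and 123 CPM in low glucose. These ranges overlapped and CDKN1A was not called (-0.034 ± 0.0591 SE, adjusted p = 0.616), but with the same total it was called higher (0.21, adjusted p = 0.00388), and the adjusted p ranged from 0.00388 to 0.921 in the alternatives. The DNA polymerase POLH, which copies past lesions, had 38.5 ± 1.04 CPM in high and 12.2 ± 1.85 CPM in low glucose (SD, n = 4 each) and rose (1.59). The stress cytokine GDF15 (-3.95), the death receptor TNFRSF10B (-1.07) and the BH3-only protein PMAIP1 (-1.14) fell, log2 fold changes in parentheses.

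Of 21 regulators of p53, 19 were tested, 10 were higher, 8 lower and 1 was not called, with a median of 0.31, and with the same total 11 were higher and 7 lower (over all genes 35.7% higher and 37.2% lower on the deposited scale, 47.0% and 27.9% with the same total). The acetyltransferase KAT5 had 35.7 ± 2.82 CPM in high and 157 ± 4.27 CPM in low glucose (SD, n = 4 each, log2 fold change -2.11) and fell, as did the ribosomal proteins RPL5 (-0.76) and RPL11 (-0.59), which bind MDM2. The coactivator EP300 rose (0.77). Of 10 cell cycle genes that p53 represses through p21, 8 were higher, 1 lower and 1 not called, with a median of 0.53, beside the same 35.7% higher and 37.2% lower over all genes tested. The gene that fell, CDC20 (log2 fold change -0.13), was named after its value was seen and was no longer called under 3 other scalings and in 6 of 8 fits without 1 library. That cell cycle genes were higher was known from earlier results of these data. CCNA2 (1.92), CDK1 (1.13), CDC25C (1.10) and CCNB1 (0.75) rose, log2 fold changes in parentheses.

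**Figure D4:**
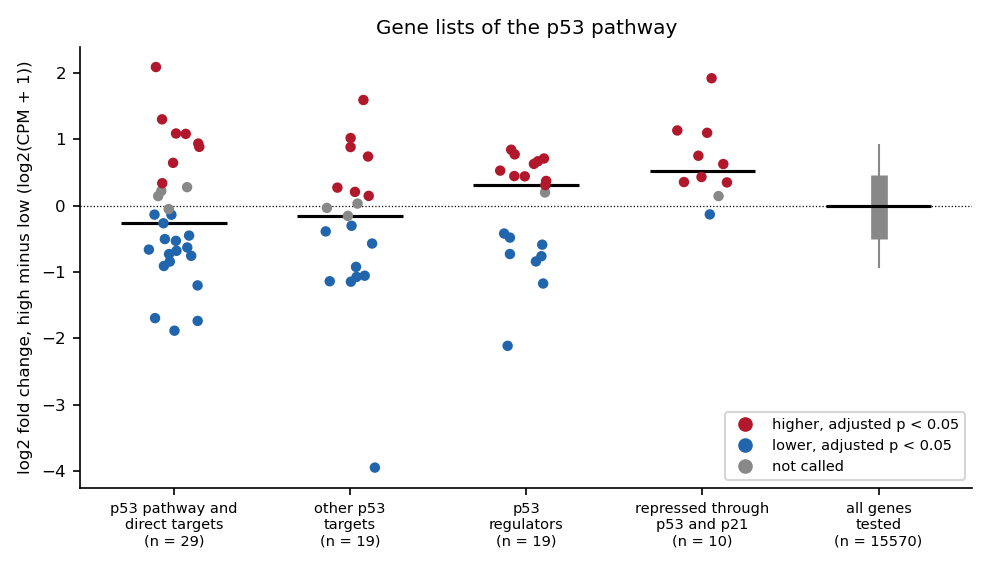
Log2 fold change (high minus low glucose, log2(CPM + 1)) of the genes tested in each list as points, red for called higher, blue for called lower and gray for uncalled, with the median as a black line. The bar on the right gives all 15570 genes tested, with the middle 50% as the thick part (-0.50 to 0.47) and the 10th to 90th percentiles as the thin line (-0.94 to 0.93). The medians of the lists are -0.27, -0.15, 0.31 and 0.53, from left to right.

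By the RefSeq annotation all 30 members are protein-coding, and their values are gene-level, so exons and isoforms are not told apart. A total of 6 members lie on chromosome 1 and 4 on chromosome 12, and among those on chromosome 12 TIGAR and TRIAP1 rose and BTG1 fell, while MDM2 lost its direction with the same total. The spans of 7 members overlap another protein-coding gene (CCNG1, EPHX1, MDM2, PIDD1, PLK3, TP53I3 and TP53INP1), as do those of TNFRSF10B, POLH, KAT5, RPL5, CCNA2 and CDC25C, and their reads in the shared stretch cannot be told apart without strand. Among the 25 called members, 21 kept their direction and their call in all alternatives in which they were tested, and the other 4 were MDM2, CCNG1, EPHX1 and SERTAD1. The 21 include GADD45G, which could only be called lower after the filter, so its place in this count is no support for a fall.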

How the data were processed

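RNA-Seq of 8 libraries of Hs578T cells (4 high glucose, 4 low glucose) was used, grouped by the treatment label. The authors deposited 1 table of normalized signal, 21077 rows and 1 column per library. Its processing notes from the submitters list hg38 and edgeR. The study's methods describe CPM with TMM factors for RNA-Seq, without naming these cells, so the signal was read that way, also from the column sums. The methods name Tophat and an older genome build for the RNA-Seq of the study, which differs from the build in the notes, so the aligner and counter of these libraries are not known here. Per column, the most frequent positive value was taken as 1 count. Of the values below 50 counts, 71.2% to 73.8% were whole within 0.005, so counts were estimated in fractions and count models were not applied.

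A minimum of 0.5 CPM in 2 libraries was required, and log2(CPM + 1) was fitted with limma 3.58.1 (R 4.3.3) with trended empirical Bayes, high minus low glucose, without covariates. The fit was tested on simulated counts in which few genes had a known fold change. No difference in total between the groups was built in, so the scaling was not tested by it. The members and lists were chosen with earlier results of these data known. All 30 members, CDKN1A and up to 4 called genes of each of 3 lists by smallest p are named, 1 gene is not reported here, and no member's symbol had several rows. Alternatives covered the pseudocount, the filter, 3 scalings, the variance trend, a replicate block, summed rows and leaving out each library. Libraries were alike within groups (correlation across genes 0.992 to 0.995) and less so between groups (0.941 to 0.951).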

Additional observations from a re-analysis of the deposited data

Results flagged for a closer look

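In 86 groups of 4 libraries (43 named genes in high and low glucose), 5 had 1 library apart from the others by Dixon's test at the 95% level, which chance alone gives in about 1 of 20 groups. Among the 86, GADD45G in high glucose and SPATA18 in low glucose were at 0 throughout and could not be tested. MDM2 was at 58.3 CPM in low-glucose replicate 4, against 53.6 to 54.0 CPM in the other low-glucose libraries. AEN was at 22.1 CPM in low-glucose replicate 3, against 24.3 to 24.5 CPM in the others. SPATA18 was at 0.1002 CPM (1 count) in high-glucose replicate 2 and at 0 in the others. RPL5 was at 723 CPM in high-glucose replicate 2, against 741 to 743 CPM in the others, and CCNA2 at 34.4 CPM in high-glucose replicate 3, against 31.3 to 31.8 CPM in the others. Without low-glucose replicate 4 the call of MDM2 was lost (log2 fold change -0.11, adjusted p = 0.107).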

How the results depend on the processing

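Under 18 alternatives the members called numbered 7 to 12 higher and 14 to 17 lower, against 8 and 17. Over all genes tested, the same alternatives gave 30.3% to 47.0% higher and 27.9% to 46.1% lower. Leaving out 1 library at a time gave 7 to 9 higher and 15 to 17 lower members, with a median of -0.37 to -0.19, lowest without high-glucose replicates 1 and 2. The members' median was -0.17 with a pseudocount of 5 CPM, -0.17 with upper quartile scaling, -0.16 with quantile normalization and -0.023 with the same total. The median of all genes in these settings was -0.00066, 0.080, -0.0011 and 0.20 in that order. Over the alternatives, the members' median minus that of all genes was -0.36 to -0.16.

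With the same total, the signs of MDM2 (0.11), CCNG1 (0.11), RPS27L (0.19) and CDKN1A (0.21) reversed. With quantile normalization those of CCNG1 (0.018), RPS27L (0.044), RRAD (-0.036) and CDKN1A (0.064) reversed, and with the upper quartile those of RPS27L (0.046) and CDKN1A (0.066). CDKN1A was at -0.078 to 0.019 without 1 library, above 0 without low-glucose replicate 2 (0.0069) and without high-glucose replicate 4.

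The single repressed cell cycle gene called lower, CDC20, was not called with the same total, the upper quartile, quantile normalization or no variance trend (0 genes) and in 6 of the 8 fits without 1 library (0 to 1 genes).

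Whether replicate numbers pair the libraries was not settled. The deviations of same-numbered libraries correlated at -0.0267 to 0.112 across genes, and those of other numbers at -0.15 to 0.0759. In all, 4 of 8 libraries correlated best with their own number, and the share expected by chance was not computed. The replicate block left the calls at 8 and 17. For the paralog ratios an exact paired sign-flip permutation test over 4 differences cannot go below p = 0.125, so with the replicate block the differences of 1.56 (MDM2/MDM4), -3.19 (GADD45A/GADD45B), -1.48 (BTG1/BTG2), 0.31 (CCNG1/CCNG2), 0.98 (PLK2/PLK3) and -1.20 (TP53INP1/TP53INP2) did not pass. At this depth GADD45G, RRAD and SPATA18 were near the lower limit.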
